A study of Mus musculus with 18 samples.

Results

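The genes described here are the nuclear-encoded subunits of oxidative phosphorylation, the machinery with which mitochondria turn nutrients into ATP. They were taken by symbol from the study's gene table: Nduf genes of the a, b, c, s and v series for complex I, Sdha to Sdhd for complex II, Uqcr genes for complex III, Cox4 to Cox8 genes for complex IV and Atp5 genes for complex V. The rule found 81 of the 17198 genes of the table: 37 in complex I, 4 in complex II, 8 in complex III, 15 in complex IV and 17 in complex V. All 81 entered every test. The study sequenced RNA from cultured sensory neurons of mouse dorsal root ganglia (DRG), collected after 12, 24 and 48 h in culture. Cultures were wild type (WT) or heterozygous (HET) for Dynlrb1(tm1a/+), a knockout-first allele. Dynlrb1 encodes a dynein light chain, and dynein moves cargo such as mitochondria along axons toward the cell body. There were 3 samples for each genotype at each time, 18 in all, which the series calls biological repeats without saying whether each was a separate animal. The age of the mice was not given in the sources used here. HET cultures carried the allele in every cell type of the dish, and the title of the study ties the gene to dynein transport and neuronal survival.

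In oxidative phosphorylation, complex I takes electrons from NADH and complex II takes them from succinate. Complex III passes them through cytochrome c to complex IV, which hands them to oxygen. Complexes I, III and IV pump protons out of the matrix, and complex V, the ATP synthase, lets them flow back to make ATP. Most subunits are encoded in the nucleus and imported, and the core of complexes I, III, IV and V also holds subunits made from mitochondrial DNA. Sensory neurons have very long axons that depend on mitochondria delivered by microtubule motors. The 13 mitochondrially encoded subunits were not analysed here, nor were Atp5mpl, Cox7b2, Cox8b and Cox8c.

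The values were the authors' normalized counts, whose totals had been set nearly equal by the authors, so the sequencing depth behind each sample is unknown. Levels between genes are given in FPKM, which divides by transcript length and library size. Genotype labels were checked by Dynlrb1 itself. Its normalized count was 2716 to 4087 in the 9 HET samples and 5229 to 6674 in the 9 WT samples, with no overlap, and the HET mean over the 3 times was 56.3% of WT (log2 fold change -0.83, SE 0.071, limma adjusted p = 2.85e-05; exact two-sided permutation within time, p = 0.00025, the smallest that this test can give). Markers of sensory neurons were abundant: the 10 listed genes summed to 6119 to 8856 FPKM per sample. Markers of other cells were detected too, with sums of 326 to 441 FPKM for 8 Schwann cell genes, 220 to 656 FPKM for 5 satellite glia genes and 39.9 to 155 FPKM for 6 fibroblast genes. In bulk RNA of this kind, fewer cells of a type and less RNA per cell cannot be told apart.

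Some libraries stood apart across the whole set of subunits. In replicate 2 of WT at 24 h, 77 of the 81 subunits lay below their own mean over the 18 samples, with a median deviation of -0.30 on the log2 scale. Replicate 5 of WT at 12 h had 78 below, with a median of -0.20, and replicate 1 of HET at 24 h had 76 below, with a median of -0.22. At the other end, 78 subunits lay above their mean in replicate 2 of HET at 48 h (median 0.18) and 70 in replicate 2 of HET at 12 h (median 0.18). The median deviation of all genes in these 5 libraries ran from -0.10 to 0.060. Samples of the same group thus differed from each other, over the whole set, by as much as the groups did, and each count below is given with the libraries that decide it. Over single genes, the median SD within a group was 0.143 on the log2 scale for subunits and 0.221 for all genes. The widest were the low-level forms Cox4i2 (0.67), Cox6a2 (0.64) and Cox6b2 (0.62).

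**Figure D1:**
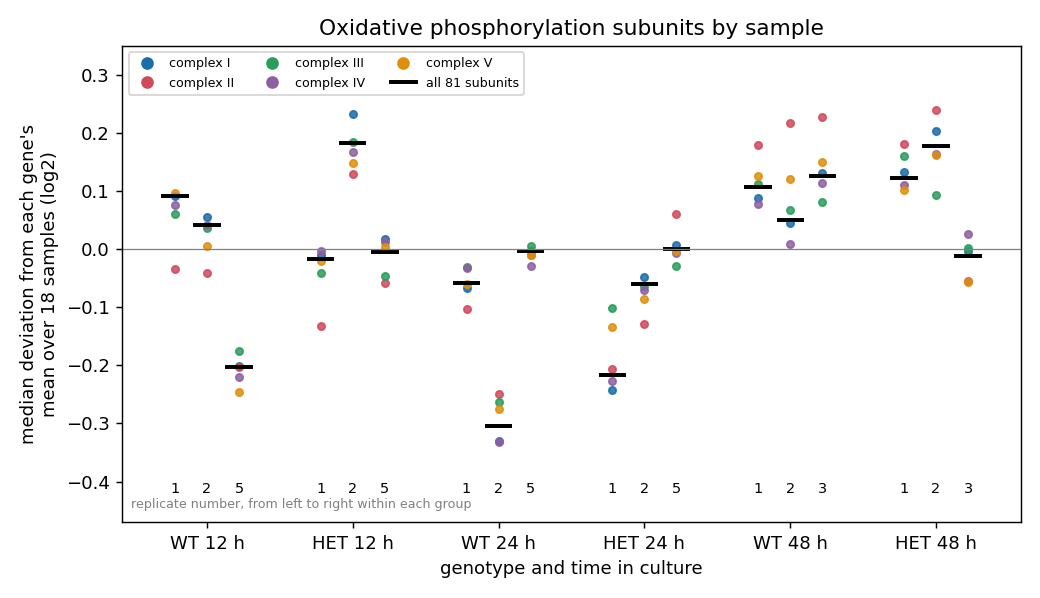
Median deviation of the subunits of each complex from each gene's mean over 18 samples (vertical axis, log2), by sample (horizontal axis, grouped by genotype and time); black bars are the medians of all 81 subunits. In the 5 libraries named above, the medians of all 5 complexes lie on the same side of 0, and replicate 2 of WT at 24 h is lowest at -0.30.

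Subunit transcripts were abundant. Their median level was 73.8 FPKM, against 5.63 FPKM for all genes of the table, and 72 of the 81 had a mean of at least 10 FPKM. By complex, the median was 61.6 FPKM for I, 66.7 for II, 79.1 for III, 112 for IV and 95.8 for V. Atp5b, the catalytic beta subunit of the ATP synthase, was highest at 592 FPKM, and 40 genes of the table lay above it. Its partner in the catalytic ring, Atp5a1, had 337 FPKM, and Atp5d, the delta subunit of the central stalk, had 239 FPKM. Cox6a1 (380.3 FPKM), Cox6b1 (370.1 FPKM) and Cox4i1 (288 FPKM) led complex IV. These are the ubiquitous forms of supernumerary subunits that surround its catalytic core. Ndufa4, which the symbol rule puts in complex I although it is now regarded as a part of complex IV, had 275 FPKM and led that list. Next came Ndufb8 at 184 FPKM and Ndufa10 at 131 FPKM. In complex III, Uqcrh, the hinge protein at the cytochrome c site, was highest (195 FPKM), followed by the core protein Uqcrc1 (125 FPKM) and the small subunit Uqcr11 (97.4 FPKM), and Uqcrfs1, the Rieske iron-sulfur protein that carries electrons to cytochrome c1, was lowest (47.2 FPKM). Complex II ran from 118 FPKM for Sdhb, the iron-sulfur subunit, to 40.4 FPKM for Sdhc, a membrane anchor.

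**Figure D2:**
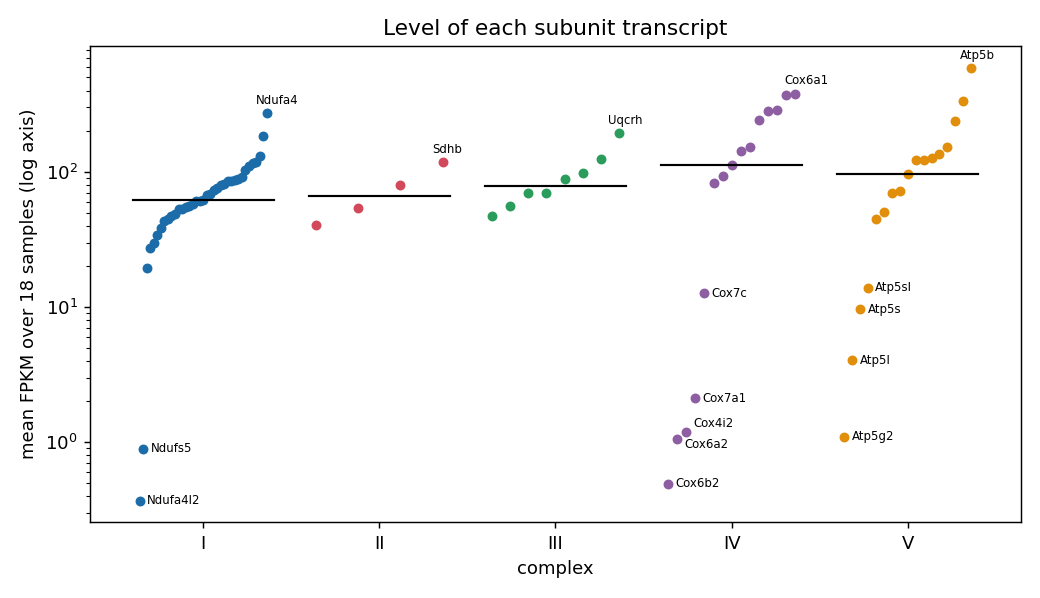
Mean FPKM over 18 samples of each subunit (vertical log axis), by complex (horizontal axis), with the median of each complex as a black line. Most points lie above 10 FPKM, and the labelled points under 15 FPKM are tissue isoforms, genes with near-identical copies, and the accessory genes Atp5s and Atp5sl.

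The 9 subunits under 10 FPKM fell into a few kinds. Cox4i2 (1.19 FPKM), Cox6a2 (1.06 FPKM), Cox7a1 (2.11 FPKM), Cox6b2 (0.493 FPKM) and Ndufa4l2 (0.369 FPKM) are forms used in particular tissues or conditions, such as lung and hypoxia for Cox4i2, heart and skeletal muscle for Cox6a2 and Cox7a1, testis for Cox6b2 and hypoxia for Ndufa4l2. Their ubiquitous partners were far higher. In WT at 12 h, Cox4i2 made up 0.212% ± 0.116 (SD, n = 3) of the summed FPKM of Cox4i1 and Cox4i2, Cox6a2 made up 0.152% ± 0.102 of its pair with Cox6a1, and Cox7a1 made up 2.23% ± 0.535 of its pair with Cox7a2. The low group also held Atp5s (9.63 FPKM), which is not a core part of the ATP synthase. The remaining 3, Ndufs5 (0.891 FPKM), Atp5l (4.02 FPKM) and Atp5g2 (1.09 FPKM), belong to 22 subunits whose coding sequence matches other loci of the genome, mostly processed pseudogenes, at 95% identity or more over at least 50% of its length. How the authors assigned reads that fit several loci was not given in the sources used here, so values of these 22 are uncertain. Others of the 22 were abundant, such as Cox6c (241 FPKM), Cox5b (152 FPKM) and Atp5o (136 FPKM). Among the 3 genes for the c ring of the ATP synthase, which encode the same mature protein, Atp5g3 had 152 FPKM and Atp5g1 50.8 FPKM. Atp5g1 contributed 24.8% to 25.9% of that pair in the 6 group means.

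Promoters of respiratory chain genes are known to carry sites of a few shared factors, among them NRF1, the ETS factor GABP, YY1 and ERRa. RefSeq promoter windows (build GRCm38.p6, 250 bases before to 50 after the start) were matched to 67 of the 81 subunits, with 74 windows, and searched on both strands. The letters searched for YY1 are those in capitals in its stretches printed here, and they stood in 6 windows of 5 subunits, 8.11% of the windows, against 0.63% of all 32851 windows of the genome and 1.14% of the windows of genes in the table. Its core AAGATGGC, which lies within the longer motif, stood in 16.22% of the subunit windows, in 2.75% of all and in 3.56% of those of table genes. The NRF1 letters, in capitals in its own stretches, stood in 6.76% and 0.97% (1.67% of windows of table genes), and the ETS letters CCGGAAGT in 6.76% and 3.89% (6.37% of windows of table genes). The shorter ETS core CCGGAAG, part of CCGGAAGT, stood in 21.62% and 8.86% (14.14% of windows of table genes), and the ERRa letters TCAAGGTCA in 2.7% and 0.42% (0.27% of windows of table genes). These are matches of letters and not measured binding. Every motif searched stood in a larger share of subunit windows than of windows of table genes, the ERRa letters in only 2 subunits. The stretches around the YY1 and NRF1 matches are printed as examples. They are written 5′ to 3′ along the strand of the gene, with the motif in capitals; Atp5sl has 2 windows that share its site.
Ndufs7 (chr10:80249464-80249492, plus strand): gccgaggccAAGATGGCGGCgctggcggg
Atp5sl (chr7:25619431-25619459, plus strand): ttacctggcAAGATGGCGGCgcccagagc
Ndufa9 (chr6:126849096-126849124, minus strand): ttgtgggagAAGATGGCGGCcgccgtccg
Ndufs4 (chr13:114388045-114388068, minus strand): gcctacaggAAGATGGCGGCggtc
Ndufs6 (chr13:73328433-73328458, minus strand): gtcaccggcAAGATGGCGGCggtgct

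All 5 YY1 matches began 25 to 36 bases after a start site, and that of Atp5sl also 53 bases before its other start. The YY1 letters hold ATG, the letters of a start codon. Whether these matches overlap the start of translation was not tested. The 5 NRF1 matches lay 42 to 162 bases before the start, except in Uqcrc1, where the match began 31 bases after it.
Atp5g2 (chr15:102671071-102671098, minus strand): gctccggccGCGCATGCGCagagccttc
Atp5k (chr5:108434431-108434458, minus strand): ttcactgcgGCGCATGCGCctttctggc
Cox6a1 (chr5:115349102-115349129, minus strand): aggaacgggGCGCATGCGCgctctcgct
Ndufa11 (chr17:56717693-56717720, plus strand): ctgcactgcGCGCATGCGCgcacgcctt
Uqcrc1 (chr9:108936669-108936696, plus strand): ctccgctctGCGCATGCGCagcgcggct

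The first comparison asked whether reduced Dynlrb1 went with a different level of subunit transcripts. No subunit passed limma's test (Benjamini-Hochberg adjusted p under 0.05 over all 17198 genes) between HET and WT at 12, 24 or 48 h, nor in the average over the 3 times. The share of all genes called was 0.00581% at 12 h, 0.00581% at 24 h, 0.00% at 48 h and 0.0174% in the average, so few genes of any kind passed. Dynlrb1 itself, at 55.0% to 58.2% of WT, passed at 24 h (limma adjusted p = 0.0390). It missed the threshold at 12 h (0.0655) and 48 h (0.0501), so the test at a single time could miss a loss of that size. An unadjusted p under 0.05 was found for 2 of the 81 subunits at 12 h (1447 of all 17198 genes), 0 at 24 h (198 genes), 1 at 48 h (3782 genes) and 3 in the average (2315 genes). The authors' deposited table called 0.0233%, 0.0116% and 5.98% of all genes at the 3 times and likewise no subunit, with a lowest adjusted p among the subunits of 0.136 at 48 h. No label states that cultures of the 2 genotypes were paired. At 48 h they were taken as paired by replicate number because same-numbered samples correlated in these data (0.209 to 0.461). A limma fit with the replicate block within each time called 2120 genes (12.3% of all) there, again with no subunit (lowest adjusted p 0.141).

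**Figure D3:**
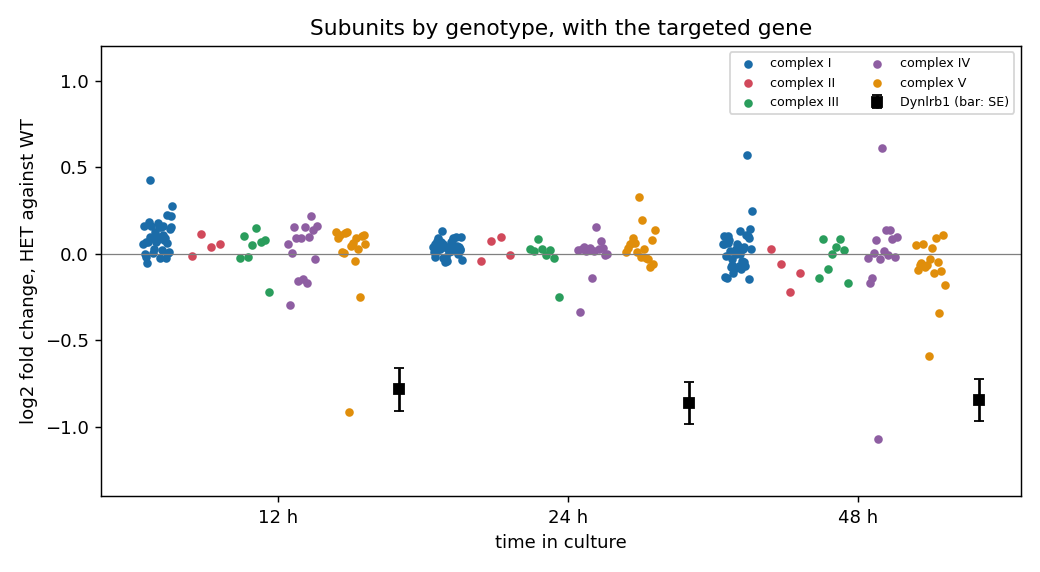
Log2 fold change of each subunit, HET against WT (vertical axis), at 12, 24 and 48 h in culture (horizontal axis), colored by complex, with Dynlrb1 as black squares (bar, SE). Most subunits lie near 0 at each time, while Dynlrb1 lies near -0.8.

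Differences between genotypes were small. Over the 81 subunits the median log2 fold change at 12 h was 0.08, that at 24 h was 0.03 and that at 48 h was -0.002, beside -0.02, 0.01 and -0.03 for all genes. At 12 h 64 subunits were on the higher side in HET, and by complex the medians were 0.09 for I, 0.05 for II, 0.06 for III, 0.09 for IV and 0.06 for V. That tilt came with 1 library: without replicate 5 of WT at 12 h the median was -0.004. At 24 h the median was -0.06 without replicate 2 of WT and -0.01 without replicate 5 of HET at that time. At 48 h 40 of the 81 were on the higher side, and the median was 0.03 with the plain adjusted columns (another scaling by the authors), 0.01 with quantile normalization, 0.04 without replicate 3 of HET and 0.01 without replicate 3 of WT at 48 h. Subunits of complex I had a median of 0.02, and those of complex V had -0.06. The ranges of the 3 HET and 3 WT samples did not overlap for 5 subunits that were higher in HET and 2 that were lower at 48 h, against 9.57% and 14.4% of all genes.

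Among the catalytic subunits, Ndufv1, which holds the NADH site of complex I, had normalized counts of 5968, 7628 and 6939 in HET and 6062, 5712 and 5779.9 in WT at 12 h (log2 fold change 0.22, SE 0.10, adjusted p = 0.590). The HET samples were on the higher side with overlap. Ndufs4, an accessory subunit whose loss causes complex I deficiency, had 1896, 2196 and 2005 in HET and 1672, 1904 and 1642 in WT at that time (adjusted p = 0.594). Atp5g2 was the subunit with the lowest p at 12 h, at a very low level: 20.3, 20.6 and 12.9 normalized counts in HET and 49.1, 27.8 and 28.5 in WT (log2 fold change -0.91, SE 0.30, adjusted p = 0.577). Its ranges did not overlap at 12 h, but they overlapped at 24 h (29.9, 31.3 and 35.9 against 31.4, 23.0 and 22.9), where the HET mean was on the higher side, and Atp5g2 is among the genes with near-identical copies. At 24 h Uqcrq, a small subunit of complex III, had 1078, 854 and 1003 in HET and 1021, 1414 and 1072 in WT (log2 fold change -0.25, not called). Next by p at 24 h came Atp5h, a stalk subunit of the ATP synthase, at 0.19 and Atp5sl at 0.14 on the log2 scale, neither of them called. Averaged over time the log2 fold change of Uqcrq was -0.21 (adjusted p = 0.362).

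At 48 h the subunit with the lowest p was Cox6a2, the muscle form of a complex IV subunit. Its normalized counts were 44.1, 19.3 and 25.1 in HET and 47.5, 92.9 and 47.7 in WT (log2 fold change -1.07, SE 0.49, adjusted p = 0.209), and the highest HET sample lay just under the lowest WT sample. Ndufv3, an accessory subunit beside the NADH site, had 4606, 4236 and 3838 in HET and 3703, 3122 and 3898 in WT at 48 h (log2 fold change 0.24, adjusted p = 0.311), with overlap. The core proteins of complex III and the large subunits of complex V differed little in the average over time: Uqcrc1 by 0.02 on the log2 scale, Uqcrc2 by 0.06, Atp5a1 by 0.06 and Atp5b by 0.01. A p that misses the threshold does not show that genotypes were equal. The standard errors of these averaged differences, such as 0.059 for Ndufv1, limit what could be seen.

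Time in culture was the second comparison. In WT from 12 to 24 h no subunit passed the limma test (3.62% of all genes did; 1 subunit and 3688 genes had an unadjusted p under 0.05), and the authors' deposited table called none either (4.97% of all genes). The median log2 fold change was -0.09 over the subunits and 0.05 over all genes, and 9 subunits were on the higher side. By complex the medians were -0.11 for I, -0.04 for II, -0.07 for III, -0.08 for IV and -0.09 for V. Without replicate 2 of WT at 24 h, the library in which 77 subunits were low, the median was -0.008. Atp5e, the epsilon subunit of the ATP synthase, had a log2 fold change of -0.27 and Cox6a2 one of 0.91, neither of them called. Ndufa11, a membrane subunit of complex I, had the lowest p, with 2550.0, 2659 and 1869 normalized counts at 12 h and 2104, 1771 and 1903 at 24 h (adjusted p = 0.180).

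From 12 to 48 h in WT, 15 subunits rose and none fell, in a comparison in which 47.1% of all genes passed the limma test (30.0% higher and 17.1% lower). The median log2 fold change of the 81 was 0.10, beside 0.11 for all genes, and 65 were on the higher side. It was 0.02 without replicate 5 and 0.19 without replicate 1 of WT at 12 h. The ranges of the 3 samples at 48 h and at 12 h did not overlap for 26 subunits, all higher at 48 h, beside 34.6% of all genes higher and 20.7% lower. In the authors' other scaling of the same samples, the plain adjusted columns, the median of all genes moved from 0.11 to 0.01 and that of the subunits to -0.007, with 8 subunits and 24.3% of all genes called higher. Relative to all genes the subunit median was -0.01 in both scalings. The authors' deposited table, in which 45.4% of all genes passed, called 9 subunits, all higher. Of the subunits called by limma, Ndufs1, Ndufb10, Ndufa2, Uqcrb, Atp5b and Atp5f1 were not among these 9. The call count fell to 6 without replicate 5 of WT at 12 h, 7 without replicate 2 of WT at 48 h and 8 without replicate 3 of WT at 48 h.

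From 24 to 48 h in WT, 16 subunits rose and none fell, with 27.7% of all genes called (17.4% higher and 10.3% lower). The median was 0.23 over the subunits and 0.05 over all genes, and 79 of the 81 were on the higher side. The sample ranges did not overlap for 44 subunits, all higher at 48 h, beside 27.7% of all genes higher and 18.4% lower. This comparison uses the same 48 h samples as the one before, so the 2 are not independent. Without replicate 2 of WT at 24 h only 2 subunits passed and the median was 0.15. The count was 10 without replicate 1 of WT at 24 h, 8 without replicate 1, 5 without replicate 2 and 8 without replicate 3 of WT at 48 h, and 25 without replicate 5 of WT at 12 h, which alters only the estimate of spread.

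**Figure D4:**
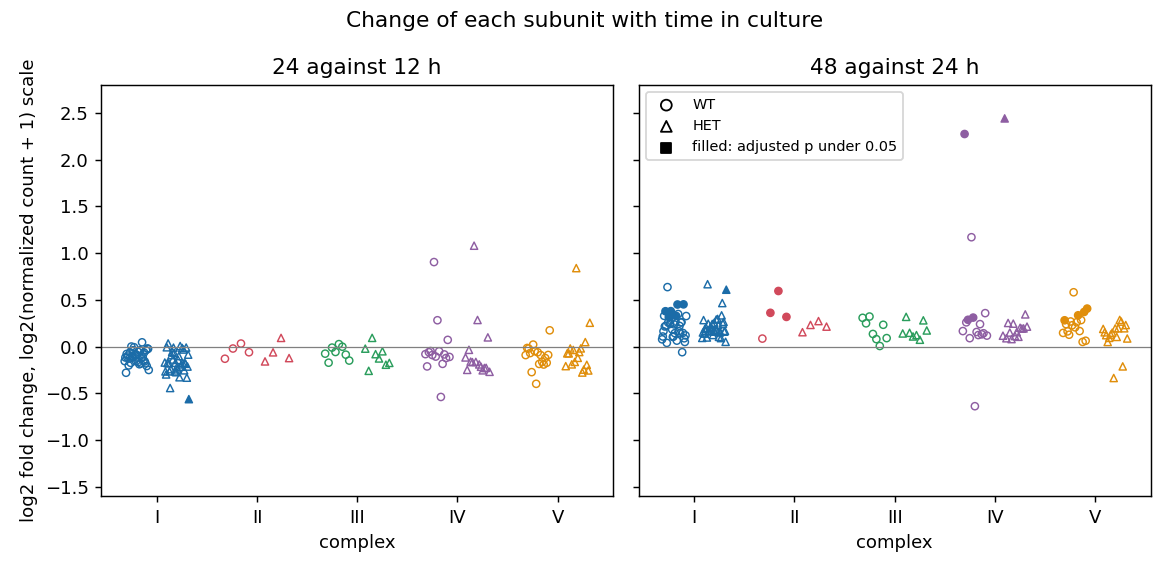
Log2 fold change of each subunit with time (vertical axis) for 24 against 12 h (left) and 48 against 24 h (right), by complex (horizontal axis); circles are WT, triangles are HET, and filled symbols passed limma's test. Most symbols lie slightly below 0 on the left and above 0 on the right, and Cox4i2 lies above 2 on the right in both genotypes.

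Complex II, the succinate dehydrogenase that also works in the citric acid cycle, had the highest median from 12 to 48 h in WT, 0.30 over its 4 subunits. Sdhc, a membrane anchor of the complex that helps to bind ubiquinone and heme (chromosome 1, 171127165 to 171150603, minus strand, GRCm38), had 1779.9, 1664 and 1612 normalized counts at 12 h, 1637, 1604 and 1949.5 at 24 h and 2594, 2634 and 2585 at 48 h. All 3 samples at 48 h lay well above all 6 earlier ones, and Sdhc rose 1.55-fold from 12 h (log2 fold change 0.63, SE 0.13, adjusted p = 0.000996). It passed the test under every alternative and every left-out library for 12 to 48 h and for 24 to 48 h in WT. In HET it had 1597, 1779.9 and 1820.3 at 12 h and 2550.3, 2454 and 1775 at 48 h, where replicate 3 stayed at the level of 12 h (log2 fold change 0.37, adjusted p = 0.0653). Sdhb, the iron-sulfur subunit, rose from 5033, 4914 and 4375 to 5657, 6140.4 and 6347 in WT (log2 fold change 0.34, SE 0.11, adjusted p = 0.0169). Sdhd, the other membrane anchor, rose from 24 to 48 h (log2 fold change 0.32, adjusted p = 0.0356). Sdha, the flavoprotein that oxidizes succinate, had 10320.4, 10306 and 8990.3 at 12 h and 10169, 9216 and 9337 at 48 h, a log2 fold change of -0.04 (adjusted p = 0.663).

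In complex I, 7 of 37 subunits rose from 12 to 48 h in WT, beside 30.0% of all genes called higher. The median was 0.10, beside 0.11 for all genes. Ndufs7, a core subunit that carries the last iron-sulfur cluster before ubiquinone (chromosome 10, 80249121 to 80256794, plus strand), had 2323, 1951 and 1726 normalized counts at 12 h and 2606, 2824 and 2522 at 48 h (log2 fold change 0.42, SE 0.12, adjusted p = 0.00948). Its call was lost without replicate 5 of WT at 12 h (adjusted p = 0.0551). Ndufa9, an accessory subunit near the ubiquinone site, rose from 3485, 3589.6 and 3238 to 4309.6, 4446 and 4309.8 (log2 fold change 0.34, SE 0.10, adjusted p = 0.0107). Ndufs1, the largest core subunit of the electron-input arm, rose from 5779, 5952 and 5183 to 6609, 6945 and 6798 (log2 fold change 0.27, adjusted p = 0.0257). For other core subunits the log2 fold changes were 0.03 for Ndufv1, 0.10 for Ndufv2, 0.11 for Ndufs3 and -0.12 for Ndufs8, none of them past the threshold. Ndufb9, Ndufa6, Ndufb10 and Ndufa2, accessory subunits, made up the other calls, with log2 fold changes of 0.41, 0.32, 0.29 and 0.28. They are named after their values were seen, and 19.5% of the exonic bases of Ndufb9 also belong to an annotated transcript of another gene on the same strand.

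Complex III had 1 call of 8 from 12 to 48 h in WT, beside 30.0% of all genes called higher. It was Uqcrb, a small subunit near the ubiquinone site (log2 fold change 0.31, adjusted p = 0.0390 from limma), named after its value was seen. Its coding sequence is wholly matched by copies elsewhere. The subunits that carry or hold the electron path had values near 0, with 0.08 for Uqcrc1, 0.11 for Uqcrc2 and 0.01 for Uqcrfs1 on the log2 scale and no call. Complex V had 3 calls of 17, beside the same 30.0% of all genes, and a median of 0.15, beside 0.11 for all genes. Atp5sl, a gene also called Dmac2, known as a factor in building the membrane arm of complex I and not as a subunit of the ATP synthase (chromosome 7, 25619414 to 25625551, plus strand), had 821, 655 and 629 at 12 h and 974, 1109.6 and 1053 at 48 h, again with no overlap (log2 fold change 0.58, SE 0.11, adjusted p = 0.000635). Atp5b rose from 48131, 43513 and 38289.7 to 50511, 53323 and 52011 normalized counts (log2 fold change 0.27, SE 0.10, adjusted p = 0.0369). Atp5f1, the b subunit of the stalk, was the third call (log2 fold change 0.29), and 90.1% of its coding sequence has a near-identical copy. The alpha subunit Atp5a1 had a log2 fold change of 0.06 and the gamma subunit Atp5c1 one of 0.22, and neither was called.

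Complex IV had the widest spread of changes although its median from 12 to 48 h in WT was 0.09. Cox4i2, the form of subunit 4 known from lung and from low oxygen (chromosome 2, 152754173 to 152765037, plus strand), had 12.5, 14.2 and 26.1 normalized counts in WT at 12 h, 20.4, 10.3 and 13.9 at 24 h and 92.7, 91.9 and 46.0 at 48 h. Its rise was 4.18-fold from 12 h (log2 fold change 2.06, SE 0.50, adjusted p = 0.00327). In HET the values were 17.2, 12.3 and 11.5 at 12 h, 7.22, 13.4 and 14.3 at 24 h and 131, 85.5 and 24.3 at 48 h (log2 fold change 2.19, SE 0.50, adjusted p = 0.0163 from 12 h). All samples at 48 h lay above all earlier samples of their genotype in HET and in WT, but the 3 values at 48 h spread widely, from 24.3 to 131 in HET. The share of Cox4i2 in its pair with Cox4i1 went from 0.212% ± 0.116 to 0.840% ± 0.306 (SD, n = 3) in WT and from 0.153% ± 0.0393 to 0.874% ± 0.568 in HET. Cox4i1, the ubiquitous form, had a log2 fold change of 0.09 in WT and 0.00 in HET and made up the rest of the pair. Cox5a and Cox5b had 0.20 and 0.24 in WT and were not called (Cox5b was with the replicate block, adjusted p = 0.0471 from limma).

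Cox6a2 (chromosome 7, 128205435 to 128206387, minus strand) had 16.2, 27.7 and 4.99 normalized counts in WT at 12 h, 27.4, 17.5 and 35.99 at 24 h and 47.5, 92.9 and 47.7 at 48 h, a 4.22-fold rise from 12 h (log2 fold change 2.08, SE 0.49, adjusted p = 0.00240). In HET it had 16.3, 10.1 and 10.1 at 12 h and 44.1, 19.3 and 25.1 at 48 h (log2 fold change 1.16, adjusted p = 0.110). Cox7a1, the other muscle form, was not called, with 51.8, 43.1 and 25.5 at 12 h and 33.8, 29.0 and 23.9 at 48 h in WT (adjusted p = 0.302). Markers of cells in which these forms are known were measured beside them. The 5 measured skeletal muscle genes summed to 1.22 to 2.37 FPKM over all samples. The 8 genes of pericytes and smooth muscle summed to 70.9 to 110 FPKM in WT at 12 h and 122 to 256 FPKM at 48 h, and to 74.9 to 82.8 and 75.3 to 143 FPKM in HET. In WT 3 of these 8 rose and 2 fell from 12 to 48 h, beside 30.0% and 17.1% of all genes. Tagln made up much of the WT sum, with means of 41.6 FPKM at 12 h and 131 FPKM at 48 h. Myh11 went the other way, from 1.95 to 0.347 FPKM. The part of these cells in the rise of Cox4i2 and Cox6a2 was not tested.

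**Figure D5:**
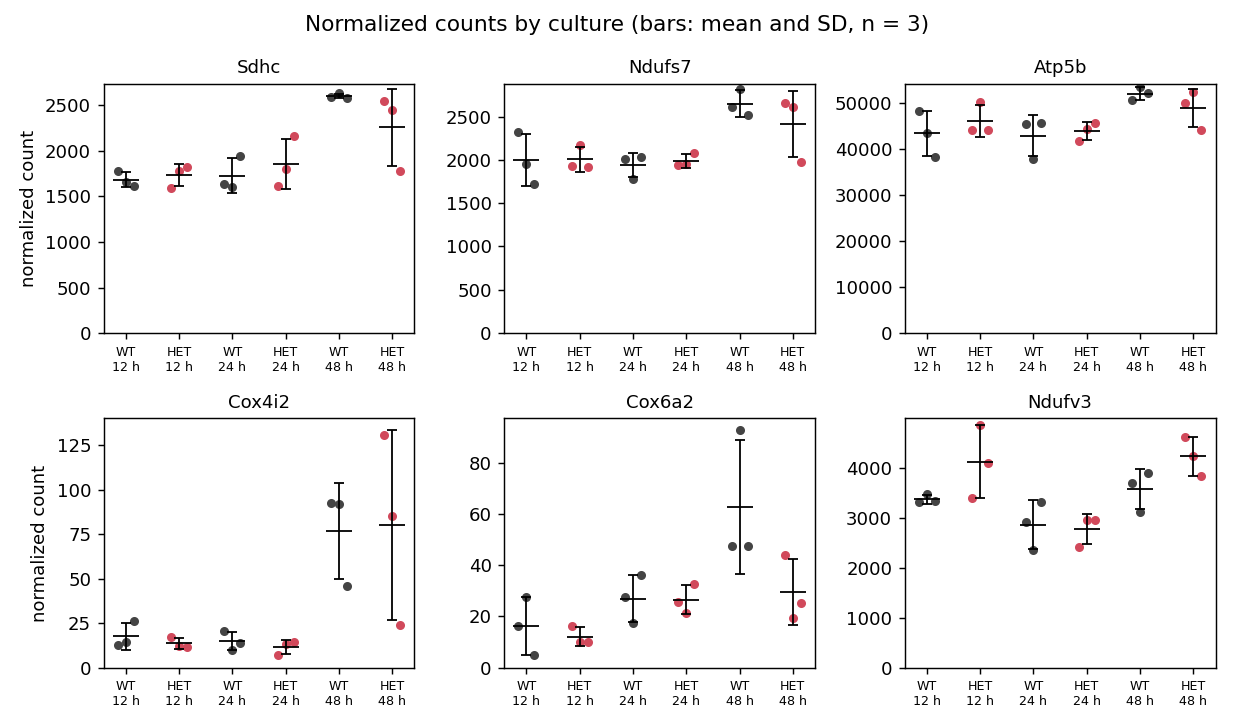
Normalized counts (vertical axes) of 6 subunits in each sample, by genotype and time (horizontal axes), WT black and HET red; bars are the mean and SD, n = 3. Sdhc and Cox4i2 are above all earlier samples in the 3 WT samples at 48 h, and HET at 48 h spreads more widely for both.

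In HET cultures from 12 to 24 h, 1 subunit fell and none rose, with 18.9% of all genes called (5.76% lower). It was Ndufv3, with 3400.4, 4861 and 4099 normalized counts at 12 h and 2424, 2946 and 2952 at 24 h (log2 fold change -0.56, SE 0.14, adjusted p = 0.0108). It was lost without replicate 2 of HET at 12 h or replicate 1 of HET at 24 h, and the authors' deposited table (18.3% of all genes called) also held Ndufv3 as its only subunit. The median over the subunits was -0.16, beside 0.08 over all genes, and 71 of the 81 were on the lower side. With the plain adjusted columns 14 subunits and 7.90% of all genes were called lower. The count of calls moved to 2, 3 or 4 when a library of another group was left out (4 without replicate 3 of HET at 48 h, 3 without replicate 2 of WT at 24 h, and 2 without replicate 1 or 5 of WT at 12 h, replicate 5 of WT at 24 h, replicate 3 of WT at 48 h or replicate 1 of HET at 12 h).

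From 12 to 48 h in HET 1 subunit, Cox4i2, rose and none fell, beside 14.2% of all genes called (10.6% higher). The authors' deposited table (15.5% called) had the same subunit. The sample ranges did not overlap for 4 subunits higher and 1 lower at 48 h, beside 21.6% and 8.12% of all genes. The median was 0.03, beside 0.10 over all genes, and 52 subunits were on the higher side. With the plain adjusted columns it was -0.06, beside 0.007 over all genes, with 22 on the higher side, and quantile normalization gave -0.003. It was 0.004 without replicate 1 of HET at 12 h and 0.10 without replicate 3 of HET at 48 h. Cox4i2 was not called without replicate 2 of HET at 12 h or without replicate 1 or 2 of HET at 48 h. The count was 8 without replicate 3 of HET at 48 h and 2 without replicate 1 or 5 of WT at 12 h. From 24 to 48 h in HET, Cox4i2 and Ndufv3 rose (2.49% of all genes called, 1.42% higher), the latter from 2424, 2946 and 2952 to 4606, 4236 and 3838 (log2 fold change 0.61, SE 0.14, adjusted p = 0.0338). The median was 0.17, beside 0.02 over all genes, with 79 of 81 on the higher side. Sample ranges at 24 and 48 h did not overlap for 29 subunits, all higher at 48 h, beside 10.2% of all genes higher and 8.08% lower. The count of calls from 24 to 48 h was 10 without replicate 3 of HET at 48 h and 1 without replicate 2 of HET at 24 h. It was 0 without replicate 1 or 5 of HET at 24 h or replicate 1 or 2 of HET at 48 h. With the replicate block 3 subunits were called higher from 12 to 48 h (20.5% of all genes) and 3 from 24 to 48 h (6.72% of all genes).

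Replicate 3 of HET at 48 h bears on these counts. Its median deviation over the subunits was -0.01, while replicates 1 and 2 of the group had 0.12 and 0.18. For Sdhc, Ndufs7 and Atp5b its values of 1775, 1971 and 44149.7 normalized counts lay within the range of the HET samples at 12 h, while those of the other 2 replicates lay near or within the WT range at 48 h.

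Whether the change from 12 to 48 h differed between genotypes was tested directly. No subunit passed (0.00% of all genes did; 0 subunits and 1534 genes had an unadjusted p under 0.05). The median of the HET change minus the WT change was -0.08 over the subunits and -0.01 over all genes, and 15 subunits were on the higher side in HET. By complex it was -0.08 for I, -0.17 for II, -0.06 for III, -0.08 for IV and -0.07 for V. Without replicate 5 of WT at 12 h the median over the subunits was 0.002. The lowest p values belonged to Ndufa6 (log2 difference -0.24), Atp5sl (-0.24) and Sdhc (-0.26), with adjusted p values of 0.603, 0.621 and 0.635 from limma. The larger count of calls in WT than in HET was not matched by a subunit whose change differed past the threshold. For the steps from 12 to 24 h and from 24 to 48 h, the difference between genotypes was not tested.

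Other genes of mitochondrial energy metabolism were measured for comparison. The mitochondrial ribosome, which translates the mitochondrially encoded subunits, had 58 of 77 proteins higher and 0 lower from 12 to 48 h in WT, with a median log2 fold change of 0.45, led by Mrpl18 (1.03), Mrps16 (0.92) and Mrpl24 (0.90). In HET 7 of the 77 rose, beside 10.6% of all genes called higher, and the median was 0.22 (24 rose with the replicate block, beside 20.5% of all genes). Tested directly, the change from 12 to 48 h differed between genotypes for 0 of the 77. Complex I assembly factors, which build the complex without staying in it, had 8 of 14 higher and 0 lower in WT (median 0.34), among them Tmem126a (1.44), Tmem126b (0.84) and Timmdc1 (0.72). Assembly factors of complexes II to V had 12 of 31 higher and 0 lower (median 0.22). These included Sdhaf1 (0.99), which helps to mature the iron-sulfur subunit Sdhb, Coa4 (1.15), and Cox15 (0.77), which makes the heme of complex IV. In that comparison 15 of the 81 subunits and 30.0% of all genes were called higher, and the difference between these lists was not tested.

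The next lists stand beside 30.0% of all genes called higher and 17.1% called lower from 12 to 48 h in WT. Of 14 citric acid cycle genes, 4 rose and 1 fell. Idh2 (1.13), Suclg2 (0.997) and Fh1 (0.40) led the rises, and Ogdh fell by 0.38 on the log2 scale. Among 17 glycolysis genes 4 rose and 3 fell, with Pgk1 (0.67) and Pkm (0.39) higher and Aldoc (-1.46), Pfkm (-1.01) and Hk2 (-0.72) lower. Regulators of mitochondrial gene expression moved both ways, 5 of 15 higher and 4 lower. Esrra, the orphan receptor ERRa, rose by 0.75 and Tfb1m, which modifies mitochondrial ribosomal RNA, by 0.63. Nrf1 fell by 0.80, Gabpb1, a partner of GABPA, fell by 0.76 and Esrrg fell by 1.04. Of 6 subunits or carriers that the symbol rule leaves out, Usmg5, a small ATP synthase protein (0.51), and Cycs, cytochrome c (0.38), rose. Between HET and WT no gene of these lists passed the limma test at any time or on average. With the replicate block in the fit of all samples, which called 10.4% of all genes at 48 h, the genes called at that time were 3 lower of the mitochondrial ribosome, 1 lower of complex I assembly, 2 lower of the citric acid cycle, 2 higher of glycolysis, and 2 higher and 1 lower of the regulators.

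Markers of cell types also changed from 12 to 48 h in WT, where 30.0% of all genes were called higher and 17.1% lower. Of 10 sensory neuron genes 2 rose (Isl1 by 1.83, Tubb3 by 0.73) and 5 fell, and their sum was 6261 to 7953 FPKM at 12 h and 6583 to 7038 FPKM at 48 h. Mean FPKM at 12 and 48 h was 518 and 283 for Nefh, 544 and 350 for Nefm, and 557 and 313 for Snap25. Satellite glia genes had 1 of 5 higher (Glul, by 0.59) and 3 lower, with a sum of 447 to 619 FPKM at 12 h and 225 to 241 FPKM at 48 h. Apoe had a mean of 404 FPKM at 12 h and 61.7 FPKM at 48 h. Schwann cell genes had 1 of 8 higher and 3 lower (372 to 408 and 326 to 378 FPKM), fibroblast genes 4 of 6 higher (39.9 to 88.2 and 107 to 154 FPKM) and macrophage genes 3 of 8 higher and 1 lower (21.6 to 28.7 and 51.7 to 95.8 FPKM). Endothelial genes had 3 of 6 lower (58.1 to 75.6 and 27.8 to 40.3 FPKM), and all 7 measured blood cell genes fell (8.51 to 250.3 and 3.98 to 5.41 FPKM). The part of these shifts in the changes of the subunits was not tested.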

How the data were processed

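RNA of 18 cultures was analysed from the authors' single deposited table of 17198 genes. Per the submitters' processing notes CASAVA 1.8.2, edgeR and the genome build mm10 were used. The aligner, counting method, strand setting, annotation and gene filter are not given in the sources used here. Per the file headers, the authors deposited normalized counts per sample, a signal with no raw units. They also deposited plain adjusted columns (a signal that differed from the normalized counts by a factor of 0.939 to 1.05 per sample in abundant genes), FPKM values, and log2 fold changes with p-values of their own comparisons, which are quoted only where named. Another 24 columns of per-sample ratios were not used. On the log scale those plain columns filled 15 of 17 possible dimensions, so the authors' processing had taken out 2 directions among samples. A model that ignores this counts too many residual degrees of freedom. The main fit described next has no term for these directions, so its 12 residual degrees of freedom are likely too many. Its adjusted p values may therefore be too small.

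Since the values were not counts, the count test planned for counts was replaced by limma 3.58.1 (R 4.3.3) on log2(normalized count + 1). Genes needed a mean of at least 1, which removed 0 genes. All 18 samples entered a fit with a coefficient for each group (eBayes with trend, 12 residual and 4.97 prior degrees of freedom) with 11 contrasts, adjusted by Benjamini-Hochberg within each over all genes. A fold change on this scale understates the change of low genes. Medians over subunits are descriptions without a test. The members, lists and markers were chosen with earlier results of these data known.

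Named subunits are up to 5 in each direction with the largest change among those called, or the 3 with the lowest p where none was called; catalytic subunits; tissue isoform pairs; the 3 highest and lowest of each complex by FPKM; and up to 3 genes per direction of other lists that passed. Any other named subunit is marked in the text. The text does not name every gene that this rule admits, and some are not reported here. Same-numbered samples were checked for shared deviations from their group means: WT and HET at 48 h correlated at 0.209 to 0.461 and were taken as paired from the data, while those of 12 h (0.0318 to 0.188) and 24 h (-0.207 to 0.258) were not. Coordinates come from GENCODE M21 (GRCm38, the assembly of mm10). Copies were sought with blastn 2.17.0 as alignments of coding sequence of at least 50 bases at 95% identity, and promoter windows came from RefSeq. Alternatives were a pseudocount of 0.1, a minimum mean of 5, no filter, the plain adjusted columns, quantile normalization, a replicate block, only the groups compared, and each sample left out. Another 3 were chosen after seeing the data: the removed directions as covariates, a block within each time, and values relative to all genes.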

Additional observations from a re-analysis of the deposited data

How the results depend on the processing

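No alternative gave a subunit that passed the threshold between HET and WT, in the change from 12 to 48 h compared between genotypes, or from 12 to 24 h in WT, and every setting that left out 1 library gave 0 there too. The counts of subunits that passed over time were less stable. With the plain adjusted columns they were 8 from 12 to 48 h and 10 from 24 to 48 h in WT (15 and 16 with the normalized counts) and 14 from 12 to 24 h in HET (1 before). Of all genes, 24.3% and 14.2% were called higher and 7.90% lower there, in that order. Quantile normalization gave 7 in the last comparison (16.6% of all genes called, 7.44% lower). With the removed directions as covariates the counts were 32 from 24 to 48 h in WT (28.1% of all genes called) and 2 from 12 to 24 h in HET (18.7%). When only the groups compared were fitted, 0 subunits and 0 genes of the table passed in HET from 12 to 48 h and from 24 to 48 h, with fewer samples to estimate the spread. The cause of the other shifts was not tested. The replicate block gave 3 subunits from 12 to 48 h in HET (20.5% of all genes higher). It gave 19 and 22 from 12 and 24 to 48 h in WT (32.4% and 23.6% of all genes higher). Between genotypes it called no subunit, but 1790 genes of the table at 48 h (0 without it) and 205 in the average over time (3 without it), and Dynlrb1 at 24 h had an adjusted p of 0.0808 with it and 0.0390 without it. The replicate number is a shared number only, except between genotypes at 48 h, where a pairing was inferred from the data and not from a label.

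Leaving out each library in turn moved the count from 6 to 18 from 12 to 48 h and from 2 to 25 from 24 to 48 h in WT. In HET it moved from 0 to 4, from 0 to 8 and from 0 to 10 for 24 against 12 h, 48 against 12 h and 48 against 24 h. Medians over the subunits moved as well, and those near 0 could change sign. From 12 to 48 h in WT the median was 0.10 with the normalized counts and -0.007 with the plain adjusted columns. In HET the medians for the same step were 0.03 and -0.06. Of 32 results for named subunits, 24 kept their side of the threshold under every setting and 0 of 838 settings reversed one. The 24 include every result that was not called. The calls among them were all in WT: Sdhc and Cox4i2 from 12 and 24 to 48 h, and Atp5sl and Cox6a2 from 12 to 48 h. Calls lost under some setting were Ndufs7 from 12 to 48 h and Ndufs7, Ndufb9 and Atp5sl from 24 to 48 h in WT. In HET the calls of Cox4i2 and Ndufv3 were each lost under some setting. A count model was not run because the values are not counts, and the filter removed no gene. With 3 samples a group and unknown depth, small differences between genotypes may have been missed.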
